A study of Rattus norvegicus with 9 samples.

Results

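The matrix metalloproteinases (MMPs), the ADAMTS proteases (a disintegrin and metalloproteinase with thrombospondin motifs) and their tissue inhibitors (TIMPs) were described as one group in rat skin. Members were all gene symbols of the count table that begin with MMP or ADAMTS followed by a digit, together with Timp1 to Timp4. This gave 45 of the 23480 symbols in the table, made up of 23 MMPs, 18 ADAMTSs and 4 TIMPs. Skin was taken from male Wistar rats, 5 young animals of 6 months and 4 old animals of 24 months, and polyadenylated RNA was sequenced. The only contrast in the design is age, so each member was compared in old against young skin. The strain, sex and tissue were shared by both groups, no treatment or genetic change is given in the labels, and the labels do not name the body site.

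MMPs and ADAMTSs are zinc proteases of the extracellular matrix that are made as inactive precursors and act at the cell surface or outside the cell. MMPs cut collagens, gelatins and other matrix and signalling proteins, while ADAMTSs cut proteoglycans such as versican and aggrecan, trim the ends of procollagens or act on microfibrils. TIMPs bind the active site of these enzymes and block them, with Timp3 held in the matrix and acting on ADAMTSs as well as MMPs. In skin, dermal fibroblasts, keratinocytes and leukocytes are all known sources of members of these families, and their balance with the TIMPs has been widely studied in skin ageing and repair.

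Several libraries stood apart. Every count of old replicates 1 and 3 was an even number, whereas 48.1% to 48.4% of the counts above 0 were even in the other 7 columns. Summed counts per library were 17281719 to 20180894 in the young group and 20129906 to 34132536 in the old group as deposited, and with the all-even columns divided by 2 the totals of old replicates 1 and 3 were 17066268 and 14742228. Old replicate 3 held 20142 counts of the milk casein gene Csn1s1 against at most 6 in any other library, and young replicate 5 held 112 counts of the kidney gene Umod against 0 in the other libraries. Marker sums in CPM (counts per 1000000 of a scaled library total) also differed with age. The fibroblast sum was 1190 to 1886 CPM in young and 3276 to 4681 CPM in old skin, with 6 of 8 markers higher. Macrophage markers summed to 87.6 to 211 CPM against 383 to 883 CPM with 8 of 8 higher, mast cell markers to 30.3 to 58.7 CPM against 63.1 to 135 CPM with 4 of 5 higher, and adipocyte markers to 464 to 1112 CPM against 3479 to 7463 CPM with 7 of 7 higher. T cell markers summed to 4.96 to 8.57 CPM against 9.41 to 19.2 CPM, with 4 of 5 higher. Neutrophil sums overlapped, at 68.7 to 102 CPM and 59.8 to 138 CPM, with 3 of 6 tested markers higher. Skeletal muscle sums also overlapped, at 36661 to 93251 CPM and 13659 to 77127 CPM, with 4 of 8 markers lower and 1 higher. The keratinocyte sum overlapped, at 21978 to 69073 CPM in young and 16304 to 22285 CPM in old skin, with 4 of 7 markers lower. None of the tested smooth muscle and pericyte, endothelial, hair follicle or chondrocyte markers was called by edgeR, and only 2 of 5 chondrocyte markers were tested. Hair follicle sums varied widely within both groups, at 25.8 to 21295 CPM in young and 43.5 to 8247 CPM in old skin. No marker list had its defining markers at 0. In bulk skin, more cells of a type and more RNA per cell cannot be told apart, and the part of these marker differences in the results on the proteases was not tested.

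Of the 45 members, 34 passed the filter on low counts and were tested. In old skin 15 of them were higher and 0 were lower at an adjusted p under 0.05 (edgeR's quasi-likelihood test, Benjamini-Hochberg over all 14933 genes tested). Across all genes tested, 9.62% were higher and 4.41% were lower at that threshold, against 44.1% and 0 of the 34 members. Even at an unadjusted p under 0.05, edgeR put 19 members higher and 0 lower, and DESeq2 and limma-voom also called 0 members lower at the adjusted threshold. The median log2 fold change of the tested members was 0.68, beside -0.05 for all genes tested, and 28 members had a positive and 6 a negative value. In 11 of the 34 members, or 32.4%, every old library lay above every young one, which held for 10% of all genes tested. The 15 called members comprised 6 of 13 tested MMPs, 7 of 17 tested ADAMTSs and 2 of 4 TIMPs.

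**Figure D1:**
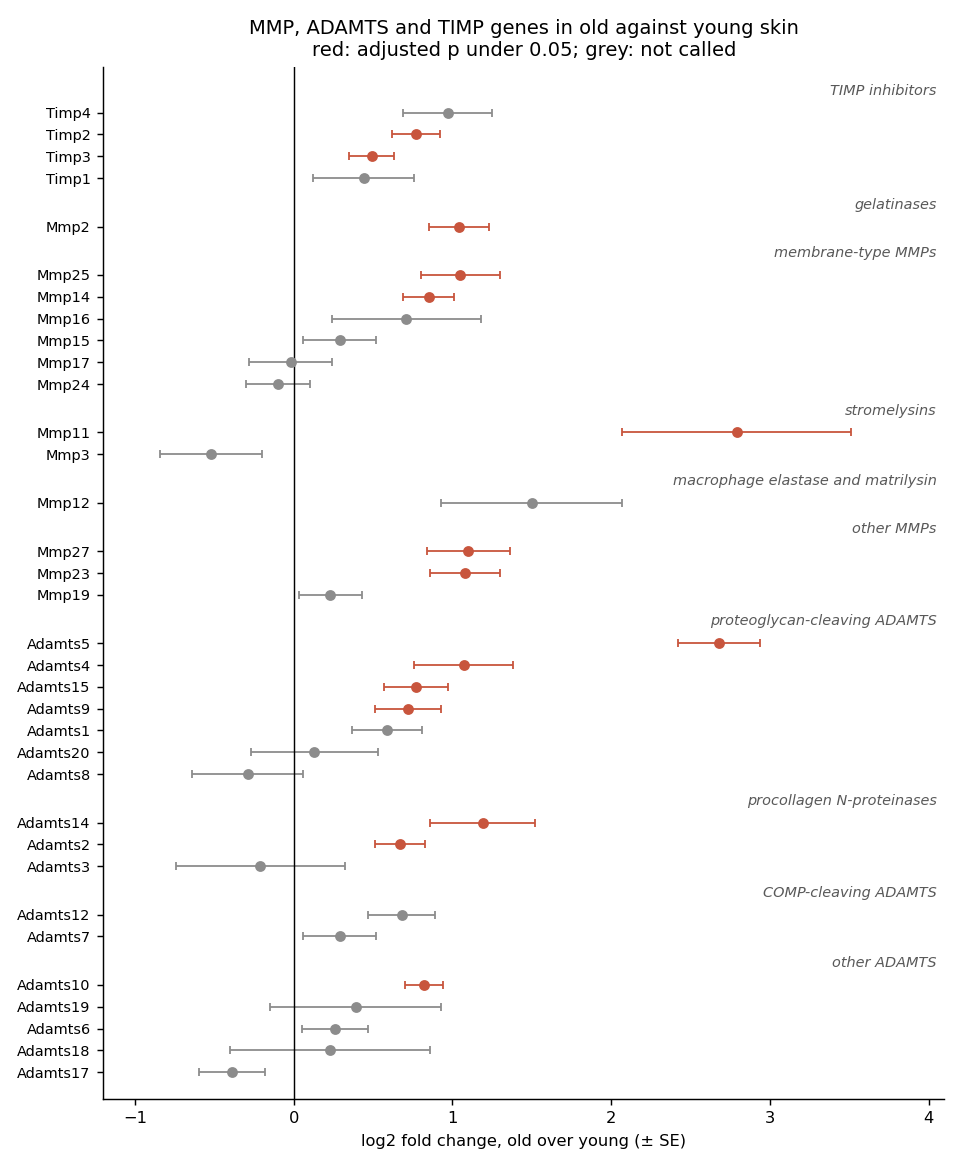
Log2 fold change of old over young skin (horizontal axis, with SE) for the 34 tested members, grouped by role, in 5 young and 4 old animals. Red points had an adjusted p under 0.05 and grey points did not: 15 lie to the right of 0 and are red, and no point to the left of 0 is red.

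The number of calls depended on single libraries, although no called member changed sign. Of the members not called, Adamts3, Adamts8, Adamts18, Adamts20, Mmp17 and Mmp24 changed sign in some fits without 1 library. Leaving out each library in turn gave 8 to 16 members higher, with 8 when young replicate 2 or young replicate 3 was left out. Of the 15 calls, 7 were kept in all 9 of these fits: Mmp2, Mmp14, Mmp23, Adamts2, Adamts5, Adamts10 and Timp2. With the 2 all-even columns divided by 2, 15 of 15 calls were kept and Timp4 was added. Without those 2 animals, 10 of 15 were kept, and Adamts2, Adamts14, Mmp11, Mmp27 and Timp3 were no longer called.

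Among the inhibitors, Timp2, which both blocks MMPs and takes part in activating the precursor of Mmp2, was higher in old skin. Its level was 218, 280, 180, 251 and 219 CPM in young replicates 1 to 5 and 383, 429, 421 and 331 CPM in old replicates 1 to 4. The groups did not overlap, young replicate 3 being the lowest of all and old replicate 4 the lowest of the old animals. Old skin exceeded young skin by a log2 fold change of 0.77 ± 0.15 (SE) with an adjusted p of 0.00963, a rise of 1.70-fold. Timp3, the matrix-bound inhibitor, stood at 389, 307, 292, 363 and 361 CPM in young and 521, 399, 507 and 500 CPM in old skin. Old replicate 2 lay just above the highest young animal and the other old animals lay well above it. Its log2 fold change of 0.49 ± 0.14 had an adjusted p of 0.0427, and the call was lost when any library other than young replicate 1 or old replicate 2 was left out, with adjusted p values up to 0.0998.

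Timp4 lay just outside the threshold. It was at 12.9, 12.5, 8.6, 13.7 and 18.5 CPM in young and at 27.4, 33.1, 13.0 and 30.1 CPM in old skin, so that only old replicate 3 fell within the young range. Its log2 fold change of 0.97 ± 0.28 had an adjusted p of 0.0502, which became 0.0177 without old replicates 1 and 3 and 0.0495 with those columns divided by 2. Timp1, the inhibitor usually described as inducible by cytokines and injury, did not pass the test. Its values were 15, 14.3, 12.4, 18.6 and 12.7 CPM in young and 26.7, 28.5, 8.13 and 15.8 CPM in old skin. The old group was split, with replicates 1 and 2 above all young animals and replicate 3 below them. The log2 fold change was 0.44 ± 0.32 with an adjusted p of 0.398. Timp1, Timp3 and Timp4 lie inside the annotated spans of the synapsin genes Syn1, Syn3 and Syn2, to which the table gave only 57, 47 and 216 counts over all 9 libraries.

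Mmp2, gelatinase A, and Mmp14, the membrane-type MMP that activates the Mmp2 precursor together with Timp2, were both higher in old skin. Mmp2 was at 277, 362, 211, 300 and 326 CPM in young and at 765, 530, 649 and 478 CPM in old skin. Every old animal was above every young animal, old replicate 1 being the highest. Mmp2 rose by a log2 fold change of 1.04 ± 0.19 with an adjusted p of 0.00767, a rise of 2.05-fold. Mmp14 was at 174, 172, 129, 149 and 157 CPM in young and at 358, 258, 287 and 224 CPM in old skin. It too showed no overlap and had young replicate 3 lowest and old replicate 1 highest. Mmp14 rose by a log2 fold change of 0.85 ± 0.16 with an adjusted p of 0.00746. Both calls held in all 9 fits without 1 library, and without the 2 all-even columns the log2 fold changes were 0.81 for Mmp2 and 0.66 for Mmp14, with adjusted p of 0.0443 and 0.0336.

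**Figure D2:**
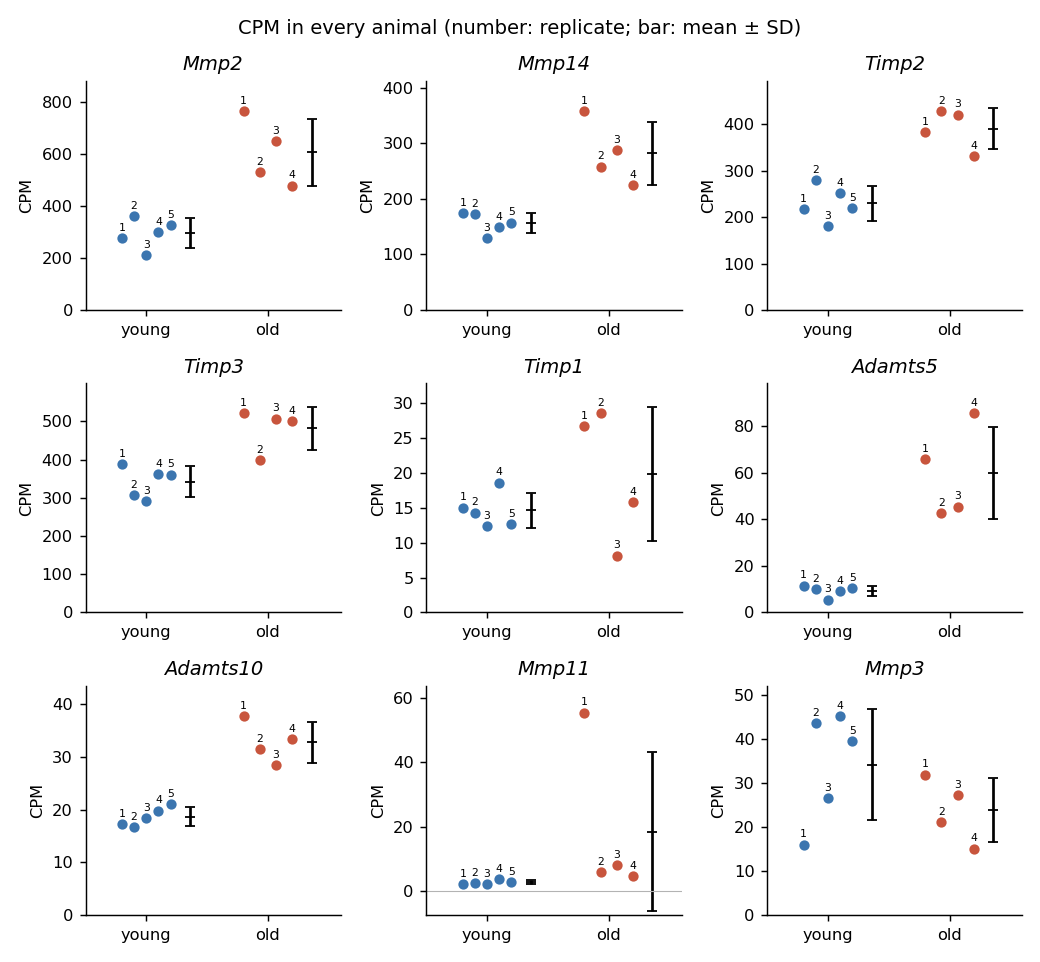
Level in CPM (vertical axis) of 9 members in each of 5 young (blue) and 4 old (red) animals, with the replicate number at each point and the group mean ± SD as a black bar. Mmp2, Mmp14, Timp2, Timp3, Adamts5, Adamts10 and Mmp11 have all old points above all young points, whereas Timp1 and Mmp3 overlap, and the old mean of Mmp11 is drawn up by replicate 1 at 55.5 CPM.

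Of the remaining membrane-type MMPs, Mmp25, which is anchored by a lipid tail and known from leukocytes, was higher in old skin. It was at 0.766 to 1.45 CPM in young and at 1.95 to 3.14 CPM in old skin, with no overlap. Its log2 fold change was 1.05 ± 0.25 with an adjusted p of 0.0234, and 3 fits, those leaving out young replicate 2, 3 or 5, ended the call at adjusted p values of at most 0.0530. Mmp15, Mmp16, Mmp17 and Mmp24 were not called, their log2 fold changes ranging from -0.10 for Mmp24 to 0.71 for Mmp16. Mmp15 alone of these was called in 1 alternative, without the 2 all-even columns, at a log2 fold change of 0.70 with an adjusted p of 0.0182.

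Mmp11, stromelysin-3, had a log2 fold change of 2.79 ± 0.72, and its size rested on 1 animal. The young animals were at 2.17, 2.45, 2.18, 3.75 and 2.80 CPM and the old animals at 55.5, 5.81, 8.08 and 4.58 CPM. All old animals were above all young animals, and old replicate 1 was far above the other 3. The adjusted p was 0.0306. Without old replicate 1 the log2 fold change was 1.25, the lowest of the fits without 1 library, and Mmp11 was still called there. The call was lost when any of the 5 young animals was left out (adjusted p up to 0.0762), limma-voom gave an adjusted p of 0.132, and DESeq2 gave none. Mmp11 overlaps the annotated span of Chchd10, which held 22677 counts, and reads of the overlap cannot be told apart here by strand. Chchd10 lay at 105 to 232 CPM in young and 38.5 to 138 CPM in old skin, with a log2 fold change of -0.84 ± 0.37 (adjusted p = 0.165).

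Mmp23, which is made with a membrane anchor and released by cleavage, was at 9.77, 10.8, 7.48, 9.05 and 8.44 CPM in young skin and 24.4, 23.3, 11.8 and 17.5 CPM in old skin. The groups did not overlap, old replicate 3 being nearest to the young range. Mmp23 rose by a log2 fold change of 1.08 ± 0.22 with an adjusted p of 0.0105. Mmp27 was at 9.46, 14.8, 7.25, 11.3 and 9.81 CPM in young and at 18.9, 18.7, 35.2 and 17.3 CPM in old skin. There was no overlap, with old replicate 3 well above the other old animals. Mmp27 rose by a log2 fold change of 1.10 ± 0.26 with an adjusted p of 0.0223, which became 0.0520 when young replicate 3 was left out.

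Mmp3, stromelysin-1, which cuts many matrix proteins and activates other MMPs, went against the direction of most members without passing the test. It was at 16.0, 43.7, 26.6, 45.3 and 39.5 CPM in young and at 31.9, 21.1, 27.2 and 15.1 CPM in old skin. The groups overlapped over most of their range. Its log2 fold change of -0.52 ± 0.32 had an adjusted p of 0.307, and it was the lowest of the 34 tested values. Mmp12, the macrophage elastase, was at 0.982, 0.399, 1.41, 0.428 and 0.285 CPM in young and at 2.69, 0.463, 2.21 and 2.53 CPM in old skin. Old replicate 2 lay within the young range and the other 3 old animals lay above it. Its log2 fold change of 1.5 ± 0.57 had an adjusted p of 0.112, and it was called only without old replicate 2 (adjusted p = 0.0334). Mmp19 was not called (log2 fold change 0.23 ± 0.20, adjusted p = 0.484).

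Adamts5, the main aggrecan-cleaving enzyme of mouse cartilage, had the smallest adjusted p of all members. It was at 11.5, 10.1, 5.54, 9.10 and 10.3 CPM in young and at 65.8, 42.8, 45.5 and 85.6 CPM in old skin. The lowest old animal was well above the highest young animal. The rise was 2.68 ± 0.26 on the log2 scale, a change of 6.42-fold, with an adjusted p of 0.00117. It was the only member called when a change of over 1.5-fold was required, and its log2 fold change lay between 2.51 and 2.82 in the 9 fits without 1 library.

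The other proteoglycan-cleaving ADAMTSs moved less, and 4 of the 7 were called in all. Adamts15 was at 22.5, 23.0, 19.4, 23.7 and 24.4 CPM in young and at 51.5, 43.6, 23.8 and 35.6 CPM in old skin. Only old replicate 3 fell within the young range. Adamts15 rose by a log2 fold change of 0.77 ± 0.20 with an adjusted p of 0.0291, and leaving out young replicate 2, young replicate 3, old replicate 1 or old replicate 2 ended the call, the highest adjusted p being 0.0727. Adamts9, a versican-cleaving protease, was at 16.2, 11.1, 15.7, 17.5 and 15.7 CPM in young and at 28.1, 21.3, 17.3 and 33.3 CPM in old skin. Old replicate 3 again fell within the young range. Adamts9 rose by a log2 fold change of 0.72 ± 0.21 with an adjusted p of 0.0457, and leaving out any young animal, old replicate 1 or old replicate 4 ended the call, the highest adjusted p being 0.111.

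Adamts4, aggrecanase-1, was at 6.00, 5.53, 4.77, 5.68 and 4.74 CPM in young and at 16.1, 12.6, 4.53 and 11.8 CPM in old skin. Old replicate 3 was below all young animals and the other 3 old animals were above them. The log2 fold change was 1.07 ± 0.31 with an adjusted p of 0.0443, and it was called in only 1 of the 9 fits without 1 library, that without old replicate 3 (adjusted p = 0.00221). Adamts1, a protease of versican and aggrecan, was at 43.1, 31.5, 34.6, 37.4 and 33.2 CPM in young and at 38.6, 37.2, 72.0 and 69.0 CPM in old skin. Old replicates 3 and 4 were above all young animals and old replicates 1 and 2 lay among them. Adamts1 was not called, at a log2 fold change of 0.59 ± 0.22 and an adjusted p of 0.1. Without old replicate 1 or old replicate 2 it was called, at adjusted p of 0.0467 and 0.0413. Leaving out any other library did not give a call. Adamts20 and Adamts8 were not called either, at log2 fold changes of 0.13 ± 0.40 and -0.29 ± 0.35.

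Of the procollagen N-proteinases, which remove the amino-terminal propeptide of fibrillar collagens, 2 of 3 were higher. Adamts2 was at 75.3, 102, 73.0, 106 and 99.5 CPM in young and at 139, 128, 179 and 136 CPM in old skin. The groups did not overlap. Adamts2 rose by a log2 fold change of 0.67 ± 0.16 with an adjusted p of 0.0204, and the adjusted p was 0.0822 without the 2 all-even columns. Adamts14 was at 2.69, 4.56, 7.31, 3.43 and 4.34 CPM in young and at 11.8, 6.94, 7.03 and 14.9 CPM in old skin. Young replicate 3 lay above old replicates 2 and 3. The log2 fold change was 1.19 ± 0.33 with an adjusted p of 0.0410, and leaving out any young animal but replicate 3, old replicate 1 or old replicate 4 ended the call, the highest adjusted p being 0.116. Adamts3 was not called, at a log2 fold change of -0.21 ± 0.53.

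Adamts10, whose product binds fibrillin microfibrils and is mutated in human Weill-Marchesani syndrome, was higher in old skin. It was at 17.3, 16.6, 18.4, 19.8 and 21.0 CPM in young and at 37.8, 31.5, 28.5 and 33.4 CPM in old skin. Both groups were narrow and did not overlap. Adamts10 rose by a log2 fold change of 0.82 ± 0.12 with an adjusted p of 0.00254, and no fit without 1 library gave an adjusted p above 0.00889. Adamts12, which cleaves cartilage oligomeric matrix protein, was at 29.9, 15.1, 18.2, 24.2 and 21.3 CPM in young and at 39.5, 30.0, 27.4 and 42.8 CPM in old skin. Young replicate 1 lay above old replicate 3 and next to old replicate 2. Adamts12 fell outside the threshold, at a log2 fold change of 0.68 ± 0.21 and an adjusted p of 0.0601. Some alternatives called it, among them DESeq2 (adjusted p = 0.0168) and the fit without young replicate 1 (adjusted p = 0.0205). Others did not, among them limma-voom (adjusted p = 0.0562) and the fit without old replicate 4 (adjusted p = 0.14). Adamts6, Adamts7, Adamts17, Adamts18 and Adamts19 were not called, with log2 fold changes from -0.39 for Adamts17 to 0.39 for Adamts19.

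The summed proteases and the summed inhibitors were both higher in old skin, and their ratio overlapped between the groups. MMP and ADAMTS counts together came to 813, 923, 702, 861 and 880 CPM in young and to 1789, 1329, 1508 and 1357 CPM in old skin. The TIMPs came to 635, 613, 493, 647 and 611 CPM in young and to 958, 890, 950 and 877 CPM in old skin. Neither sum overlapped between the groups, and the means were 836 ± 84.7 (SD, n = 5) and 1496 ± 211 (SD, n = 4) CPM for the proteases and 600 ± 61.7 and 918 ± 41.3 CPM for the TIMPs. Proteases rather than TIMPs had the larger ratio of means, at 1.79 against 1.53. A few genes carried these sums: Mmp2 and Mmp14 held on average 53.8% of protease counts in young and 59.0% in old skin. Timp2 and Timp3 held 95.4% and 95.0% of TIMP counts. The ratio of summed proteases to summed TIMPs was 1.28, 1.5, 1.42, 1.33 and 1.44 in young and 1.87, 1.49, 1.59 and 1.55 in old animals. Old replicate 2 lay just below the highest young animal, and the means were 1.40 ± 0.0895 and 1.62 ± 0.167. These sums count reads and are not corrected for transcript length, so the ratio compares animals and gives no molar balance.

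**Figure D3:**
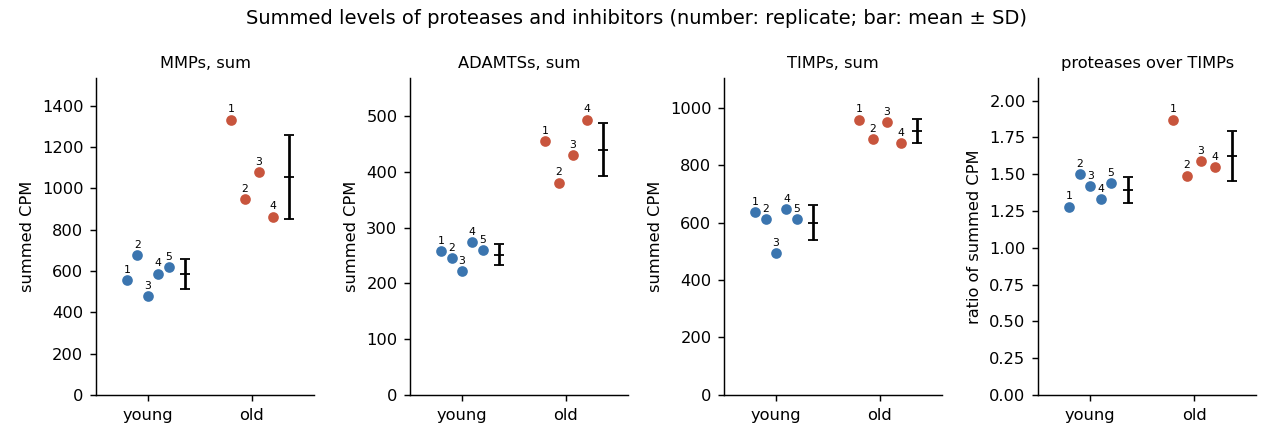
Summed CPM of the 23 MMPs, 18 ADAMTSs and 4 TIMPs, and the ratio of summed proteases to summed TIMPs, in each of 5 young (blue) and 4 old (red) animals, with group mean ± SD as a black bar. The 3 sums do not overlap between the groups, while the ratio does, with old replicate 2 at 1.49 and young replicate 2 at 1.5.

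Pairs within the families behaved differently from each other. The Mmp2 to Timp2 ratio of counts was 1.17 to 1.49 in young and 1.24 to 2.00 in old skin, and the Mmp14 to Timp2 ratio was 0.592 to 0.798 and 0.600 to 0.934, both with overlap. The Adamts5 to Timp3 ratio was 0.0190 to 0.0330 in young and 0.0896 to 0.171 in old skin, with no overlap. The Adamts4 to Timp3 ratio overlapped, at 0.0131 to 0.018 in young and 0.00893 to 0.0317 in old skin. Adamts5 made up 2.50% to 4.47% of all ADAMTS counts in young and 10.6% to 17.3% in old skin. Mmp2 made up 44.0% to 53.5% of all MMP counts in young and 55.5% to 60.3% in old skin, again with no overlap.

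The 11 members that did not pass the filter were Adamts16, Mmp1, Mmp1b, Mmp7, Mmp8, Mmp9, Mmp10, Mmp13, Mmp20, Mmp21 and Mmp28. They included all 4 collagenases of the table, Mmp1, Mmp1b, Mmp8 and Mmp13. Mmp28 had 0 counts in every library, which allows up to 0.119 to 0.177 CPM in a library (a floor of 3 reads, taken as 6 counts in the all-even columns, for counting error only). All but Mmp9 and Mmp13 had under 60 counts over the 9 libraries together.

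Mmp13, collagenase-3, Mmp9, gelatinase B, and Mmp10, stromelysin-2, were high in young replicate 3 alone. Mmp13 was at 0, 0.0570, 11.7, 0.0536 and 0.0571 CPM in young and at 0.475, 0.206, 0.407 and 0.119 CPM in old skin. Mmp9 was at 0.672, 0.114, 13.9, 0.428 and 0.171 CPM in young and at 1.06, 0.206, 0.232 and 0.237 CPM in old skin. Mmp10 was at 0.0517, 0.114, 2.18, 0 and 0.171 CPM in young and at 0.211, 0.0514, 0 and 0 CPM in old skin. These values were 198, 236 and 37 counts in young replicate 3. The 13816 genes of at least 1 CPM in that library were ranked by the ratio to the highest other library. A highest other value under 0.2 CPM was taken as 0.2 CPM in this ratio. Mmp13, Mmp9 and Mmp10 held ranks 2, 3 and 4. Ranks 1 and 5 went to the neutrophil-attracting chemokines Cxcl2 and Cxcl3, at 8.6 and 2.06 CPM against at most 0.107 and 0.116 CPM elsewhere. No other library had a member among its top 5 genes by this ranking. The 7 neutrophil markers summed to 68.7 CPM in young replicate 3, the lowest of the young animals, whose other sums were 72.6 to 102 CPM. Single markers differed there: Cxcr2, at 4.65 CPM, was the highest of all libraries, Mpo, at 0.530 CPM, the lowest of all libraries, and S100a9, at 4.54 CPM, the lowest of the young animals, while S100a8 and Csf3r, at 55.1 and 0.589 CPM, lay within the range of the other young animals. This ranking was chosen after the values were seen and has no test.

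**Figure D4:**
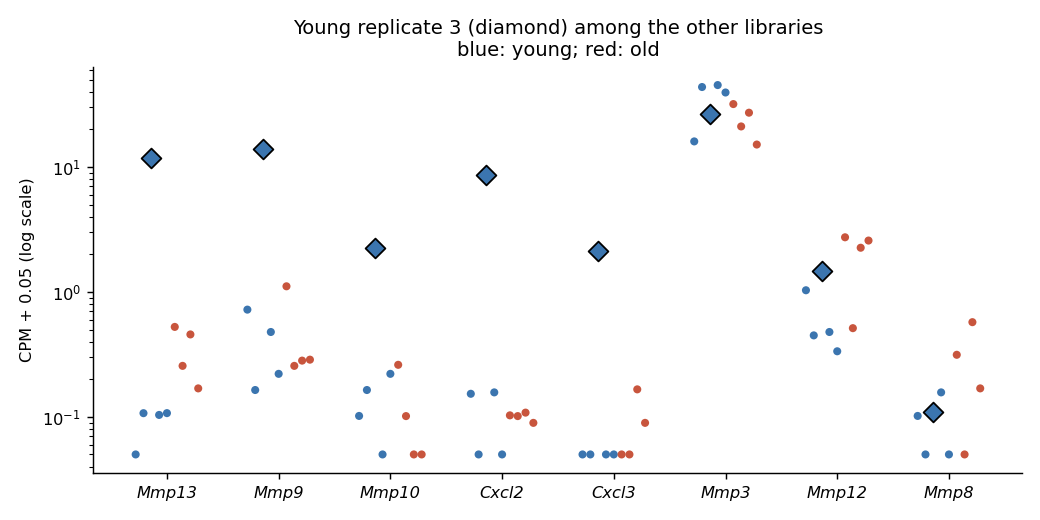
Level in CPM plus a pseudocount of 0.05 (vertical log axis) of 6 MMPs and 2 chemokines in each library, with young replicate 3 as a diamond, the other young animals in blue and old animals in red. Young replicate 3 stands above all other libraries for Mmp13, Mmp9, Mmp10, Cxcl2 and Cxcl3, and lies among them for Mmp3, Mmp12 and Mmp8.

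In the rat annotation Mmp13, Mmp12, Mmp1b, Mmp3, Mmp1, Mmp10, Mmp8, Mmp27, Mmp20 and Mmp7 follow each other in this order on chromosome 8, with only 2 other annotated genes, both pseudogenes, between them. Of these 10 genes 3 were tested, and only Mmp27 was called. Neighbours differed in level and direction: Mmp13 and Mmp10 were high in young replicate 3, while Mmp12 and Mmp3 were not set apart there. The promoter table held 34 of the 45 members and was searched for TGANTCA, the core of an AP-1 site, and TATAAA on both strands of 250 bases before to 50 bases after each start. TGANTCA was found in 7.33% of all 33469 promoters, in 7 of the 10 genes of the cluster and in 0 of the 24 other members. TATAAA was found in 14.2%, in 8 of 10 and in 4 of 24. A TGANTCA at most 60 bases upstream of a TATAAA was found in 0.209% of all promoters and in 7 of the 10 cluster genes. A match describes letters only and is no evidence of binding.

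The 120 bases before the start are shown for 4 genes that carry both motifs, 2 of them high in young replicate 3 (Mmp13 and Mmp10) and 2 not (Mmp12 and Mmp3), and for Mmp27, called higher in old skin, in whose window neither motif was found. Sequences are from RefSeq, build GRCr8, plus strand, with the motifs in capitals, at chr8:12782709-12782828 for Mmp13, chr8:12974587-12974706 for Mmp10, chr8:12866532-12866651 for Mmp12, chr8:12925161-12925280 for Mmp3 and chr8:13030632-13030751 for Mmp27.
Mmp13: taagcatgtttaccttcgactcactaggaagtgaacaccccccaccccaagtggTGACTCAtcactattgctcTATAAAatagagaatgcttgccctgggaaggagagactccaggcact
Mmp10: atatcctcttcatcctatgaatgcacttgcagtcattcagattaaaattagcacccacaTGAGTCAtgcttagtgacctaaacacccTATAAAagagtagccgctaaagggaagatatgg
Mmp12: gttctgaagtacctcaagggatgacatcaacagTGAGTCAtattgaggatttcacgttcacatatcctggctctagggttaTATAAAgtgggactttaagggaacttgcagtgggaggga
Mmp3: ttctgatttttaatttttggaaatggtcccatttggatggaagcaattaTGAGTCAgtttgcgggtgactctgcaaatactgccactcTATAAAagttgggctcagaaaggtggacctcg
Mmp27: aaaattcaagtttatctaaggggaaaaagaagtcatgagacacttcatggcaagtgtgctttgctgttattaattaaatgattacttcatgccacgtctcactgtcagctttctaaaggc
The TGANTCA begins 66 bases before the start of transcription in Mmp13, 61 in Mmp10, 87 in Mmp12 and 71 in Mmp3. In all 4 it stands upstream of the TATAAA, which begins 47, 33, 39 and 32 bases before the start.

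Genes related to these families, not all of them proteases, were read from lists without a set test. They are set beside the shares of 9.62% higher and 4.41% lower over all genes tested. A list of other inhibitors and clearance genes also held Pcolce and Pcolce2, enhancers of procollagen C-proteinase. Of its 9 tested genes, 4 or 44.4% were higher and 0 lower (median log2 fold change 0.70). Among them were Lrp1, the endocytic receptor that clears MMPs, ADAMTSs and TIMPs (1.29 ± 0.17, adjusted p = 0.00187), Reck, a membrane-anchored MMP inhibitor (1.21 ± 0.19, adjusted p = 0.00353), and Pcolce2, an enhancer of procollagen C-proteinase (2.28 ± 0.41, adjusted p = 0.00650). Of 12 activating proteases, 3 or 25% were higher and 0 lower (median 0.53): the proprotein convertase Pcsk5 (1.53 ± 0.16, adjusted p = 0.00138) and the mast cell proteases Cma1 (2.30 ± 0.27, adjusted p = 0.00142) and Tpsab1 (1.91 ± 0.41, adjusted p = 0.0144). Cma1 is also a mast cell marker. Furin, the convertase that cuts the precursors of Mmp11, Mmp14 and ADAMTSs, was not called (-0.35 ± 0.11, adjusted p = 0.0572).

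The ADAMs, membrane-bound relatives, gave 4 or 40% higher and 0 lower of 10 tested (median 0.79), with Adam19 at 1.92 ± 0.22, Adam23 at 2.24 ± 0.28 and Adam33 at 1.55 ± 0.22 on the log2 scale. Both tested astacins, the procollagen C-proteinases Bmp1 (0.39 ± 0.11, adjusted p = 0.0474) and Tll1 (0.68 ± 0.16, adjusted p = 0.0179), were higher. Of 6 ADAMTS-like genes, which lack the protease domain, 3 or 50% were higher and 0 lower (median 0.67): Adamtsl1, Adamtsl3 and Adamtsl4, at log2 fold changes of 1.00, 1.03 and 0.69. Of 18 substrates, 4 or 22.2% were higher and 0 lower (median 0.35), among them fibronectin Fn1 at 2.30 ± 0.35, fibrillin-1 Fbn1 at 1.39 ± 0.22 and nidogen-1 Nid1 at 1.09 ± 0.18. The fibrillar collagen genes Col1a1 and Col1a2 were not called, at -0.09 ± 0.18 and 0.03 ± 0.18. A list of regulators of MMP expression held cytokines, transcription factors and Bsg, and the action of each on MMPs was not tested. Of its 15 tested genes, 1 was higher and 1 lower, 6.67% each and near the shares over all genes (median -0.22). These were Tgfb1 at 0.50 ± 0.13 (adjusted p = 0.0305) and the AP-1 subunit Junb at -1.03 ± 0.21 (adjusted p = 0.0124).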

How the data were processed

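Skin RNA of 9 male Wistar rats was sequenced from polyadenylated RNA, with Qiagen RNeasy extraction and TruSeq RNA v2 libraries (a kit that does not mark strand), per the labels' protocols. The authors deposited raw counts per gene. BWA is named in the submitters' processing notes without a version, and the sources used here give no genome build, annotation or counting rule. Samples were grouped by the age label, and p-values measure the spread between these animals.

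Genes were filtered with edgeR 4.0.16 (filterByExpr, a minimum of 10 counts in enough libraries and 15 in all), scaled by TMM and tested with its quasi-likelihood F test on all 9 libraries with no covariate, and p-values were adjusted by Benjamini-Hochberg over all 14933 genes kept. A gene was called at an adjusted p under 0.05. The SE was worked back from the fold change and F. CPM values use TMM-scaled totals. DESeq2 1.42.0 and limma-voom (limma 3.58.1, R 4.3.3) were alternatives, besides other scalings, filters, thresholds, a replicate block and leaving out each library. Only the main edgeR fit was tested on simulated data, with the same dispersion for all genes, and the other steps were not. Dividing the 2 all-even columns by 2, or leaving them out, was chosen after seeing the data. The even counts are as in the deposited table, and no label explains them.

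Named members were those called, a fixed set of well-known members, those nearest the threshold, and the member with the most counts in each role group. The members and lists were chosen with earlier results of these data known. All 45 members matched RefSeq symbols (GRCr8), which were used for gene order and overlaps. Promoters were not used for Adamts5, Adamts8, Adamts15, Adamts16, Adamts19, Mmp2, Mmp9, Mmp14, Mmp16, Mmp17 and Mmp19. The deviations of same-numbered animals of the 2 groups correlated at 0.673, -0.068, 0.073 and -0.471 for replicates 1 to 4. The labels give no pairing, and 4 values of differing sign cannot decide whether the numbers pair the animals. The main fit therefore took the animals as unpaired, with the replicate block as an alternative. Figures were drawn with matplotlib 3.10.9.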

Additional observations from a re-analysis of the deposited data

Results flagged for a closer look

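Among 50 groups of member values, 7 held a library far from the others of its group, by a rule with a nominal chance rate of about 1 group in 20. That rate was not checked for CPM values such as these, and the groups share libraries, so 7 of 50 is a description and no test. Young replicate 3 stood out for Mmp13 at 11.7 CPM (nearest young animal 0.0571 CPM), Mmp9 at 13.9 CPM (nearest 0.672 CPM) and Mmp10 at 2.18 CPM (nearest 0.171 CPM), and none of the 3 was tested for age. Old replicate 1 stood out for Mmp11 at 55.5 CPM (nearest old animal 8.08 CPM) and for Mmp9 at 1.06 CPM (nearest 0.237 CPM). Old replicate 3, which also held the milk genes, stood out for Mmp27 at 35.2 CPM (nearest 18.9 CPM). Young replicate 2 stood out for Adamts9 with a low value of 11.1 CPM (nearest 15.7 CPM).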

How the results depend on the processing

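The 21 tested members of the named set defined above gave 377 values under the 18 alternatives that kept the threshold of 0.05. Of these values, 299 kept their side of it and their sign. Of the others, 61 lost the call, 17 gained it and 0 changed sign. The stricter threshold of 0.01 and the required change of over 1.5-fold are not among these values. The 15 members higher became 9 with the replicate number as a block (7 of the 15 kept, with adjusted p of 0.0412 for Mmp2 and 0.0644 for Timp3), 5 at an adjusted p under 0.01, 1 with a required change of over 1.5-fold, 12 without a filter, 11 with limma-voom and 16 with DESeq2, and 8 to 16 when 1 library was left out. The 0 members lower stayed at 0 in all of these. Over all genes, 702 were higher and 138 lower at an adjusted p under 0.01, and 506 and 93 with a required change of over 1.5-fold. The 659 genes lower became 312 with library totals alone, 1280 with DESeq2 and 437 without the 2 all-even columns, and 236 to 786 when 1 library was left out, with 236 without old replicate 4. Library totals alone moved the median of all genes from -0.05 to 0.11 and that of the members from 0.68 to 0.84, with 1956 genes higher against 312 lower in place of 1437 against 659. The ratio of summed proteases to TIMPs became 0.905 in young and 0.968 in old skin without Mmp2, and 3.27 and 3.45 without Timp3. The causes of these changes were not tested. The planned scale per length was not run, since no transcript lengths were used here. The filter asks for enough counts in several libraries, which Mmp9 and Mmp13, with most of their counts in young replicate 3, did not have. Without the filter 44 of the 45 members were tested, and 0 of the 10 added were called by edgeR (1, Mmp8, had an unadjusted p under 0.05, at an adjusted p of 0.182).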

Other observations

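Young replicate 3 was the lowest young animal in 10 of the 15 called members, and old replicate 1 the highest old animal in 8 of them. Old replicate 3 was the lowest old animal in 14 of the 34 tested members, and its value lay within the young range in 12 and below it in 6 of them. Of the 15 called members it did not lie above the young range in 4, Adamts4, Adamts9, Adamts14 and Adamts15, against 1 in old replicate 2 (Adamts14) and 0 in old replicates 1 and 4. Milk genes were at 585 CPM for Csn1s1, 45.3 CPM for Lalba and 16.4 CPM for Btn1a1 in old replicate 3, against at most 0.310, 0.103 and 0.177 CPM in the other libraries. Kidney genes were at 6.39 CPM for Umod and 7.65 CPM for Slc34a1 in young replicate 5, against 0 and at most 0.0536 CPM elsewhere. These genes were chosen after their values were seen, and their part in the results on the proteases was not tested.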
